A study of Mus musculus with 31 samples.

Results

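Transcripts of 9 genes that the tumour suppressor p53 is known to activate, Cdkn1a, Bbc3, Zmat3, Trp53inp1, Phlda3, Mdm2, Ccng1, Sesn1 and Eda2r, were followed through thymocyte cultures and freshly isolated innate lymphoid cells of the mouse. The 9 genes were chosen by name, as the rows of the RNA-seq count tables whose Ensembl IDs carry these symbols, out of 48881 gene IDs, and all 9 were found in both tables. The choice was made with earlier results of these data known. The study asked what E proteins, the transcription factors E2A (gene Tcf3) and HEB (gene Tcf12), do in T cell precursors that can become group 2 innate lymphoid cells (ILC2), a cytokine-producing lymphocyte without antigen receptors. All mice were C57BL/6.

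DN1 and DN3 thymocytes, an early and a later stage of T cell development, were grown on OP9-DL1 cells, a mouse stromal line that presents a Notch ligand, with stem cell factor, IL-7 and IL-2. Floxed cultures came from E2Af/fHEBf/f mice that also carried R26-CreERT2 and the reporter R26-stop-tdTomato, and control cultures from mice with these R26 alleles but no floxed genes. Both genotypes therefore carried the inducible Cre and both received 4-hydroxytamoxifen (4-OHT), on day 4 by the study's design text, although the labels of the DN1 day 7 cultures place it on day 7. Libraries of day 4 were made without a tdTomato sort, and those of days 5 and 7 from sorted tdTomato-positive cells. Each of the 12 culture groups, DN1 or DN3, floxed or control, on day 4, 5 or 7, has 2 libraries. Freshly isolated ILC2 came from thymus (n = 2) and lung (n = 2) of plck-Cre; E2Af/fHEBf/f mice, called dKO, in which the proximal Lck promoter drives Cre in T-lineage cells. Another ILC2 group came from lungs of mice titled Id1 (n = 3), which carry an inhibitor of E proteins under that promoter. The genotype labels of 2 of these Id1 libraries read plck-Id2 and plck-Id3, and the groups follow the titles. ILC2 of mesenteric lymph nodes were not analysed here.

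p53 is held at a low level in unstressed cells because Mdm2 marks it for destruction, and stress signals such as DNA breaks, oncogene activity or nutrient shortage let it accumulate and activate its target genes. In thymocytes the pathway is best known for guarding the stage at which T cell receptor genes are cut and rejoined, where p53 arrests or removes cells with unrepaired breaks. Among the 9 genes, Cdkn1a encodes an inhibitor of cyclin-dependent kinases that stops the cell cycle, and Ccng1 encodes cyclin G1, which acts in feedback on p53 and Mdm2. Bbc3 encodes Puma, a BH3-only protein that starts mitochondrial apoptosis, Trp53inp1 a nuclear protein that promotes p53-dependent cell death and autophagy, and Phlda3 a pleckstrin-homology protein that restrains Akt. Zmat3 encodes a zinc finger protein that binds RNA, Sesn1 a sestrin that restrains mTORC1 signalling, Eda2r a receptor of the tumour necrosis factor receptor family, and Mdm2 the ubiquitin ligase itself.

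By the mm10 coordinates of GENCODE M21, Cdkn1a (ENSMUSG00000023067) lies on chromosome 17 from 29090976 to 29100727 on the plus strand, Ccng1 (ENSMUSG00000020326) on chromosome 11 from 40748552 to 40755311 on the minus strand, and Mdm2 (ENSMUSG00000020184) on chromosome 10 from 117688875 to 117710758 on the minus strand. Bbc3 (ENSMUSG00000002083) lies on chromosome 7 from 16308393 to 16318205, Trp53inp1 (ENSMUSG00000028211) on chromosome 4 from 11156431 to 11174379 and Phlda3 (ENSMUSG00000041801) on chromosome 1 from 135766119 to 135769136, all on the plus strand. Zmat3 (ENSMUSG00000027663) lies on chromosome 3 from 32334792 to 32366014 on the minus strand, Sesn1 (ENSMUSG00000038332) on chromosome 10 from 41809935 to 41908424 on the plus strand and Eda2r (ENSMUSG00000034457) on chromosome X from 97333840 to 97377216 on the minus strand. The tables hold 1 value per gene, so exons, introns and untranslated regions are not told apart. An opposite-strand transcript, AC167363.2, shares 273 exon bases with Cdkn1a, and since the strand setting of the counting is not given in the sources used here, reads of that stretch cannot be assigned to a strand.

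Windows of the start regions, from 250 bases before to 50 after a RefSeq gene start (GRCm38.p6), were held for 7 of the 9 genes, 11 windows in all, and not for Zmat3 or Trp53inp1. Each was searched on both strands for the p53 consensus, the 20-base site to which a p53 tetramer binds. The 20 bases had to be contiguous, so sites with inserted bases or outside these windows were not searched. The best match in a window was closest in Cdkn1a and Ccng1, with 19 of 20 bases each, and then in Bbc3 and Sesn1, with 17 of 20. It was 15 of 20 in Phlda3 and Mdm2, which rose late in all 4 cultures, and 14 of 20 in Eda2r. A late rise of Sesn1 passed in none of the cultures. Cdkn1a differed most in level between genotypes, and Ccng1 and Bbc3 were among the genes that rose late in all 4 cultures. For these genes the 250 bases before the start are shown. They lie at chr17:29090729-29090978 on the plus strand, at chr11:40755287-40755536 on the minus strand and at chr7:16309333-16309582 on the plus strand, and capitals mark the 20 bases of the best match.
Cdkn1a: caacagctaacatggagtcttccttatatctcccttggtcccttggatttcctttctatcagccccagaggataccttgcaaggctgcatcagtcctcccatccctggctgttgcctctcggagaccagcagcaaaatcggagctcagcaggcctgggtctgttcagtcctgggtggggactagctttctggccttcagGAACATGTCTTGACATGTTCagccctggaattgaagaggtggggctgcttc
Ccng1: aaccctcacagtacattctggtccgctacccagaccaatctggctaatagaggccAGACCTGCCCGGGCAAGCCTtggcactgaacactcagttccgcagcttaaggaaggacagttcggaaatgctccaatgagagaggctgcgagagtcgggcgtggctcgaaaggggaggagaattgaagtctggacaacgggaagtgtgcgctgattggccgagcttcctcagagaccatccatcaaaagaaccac
Bbc3: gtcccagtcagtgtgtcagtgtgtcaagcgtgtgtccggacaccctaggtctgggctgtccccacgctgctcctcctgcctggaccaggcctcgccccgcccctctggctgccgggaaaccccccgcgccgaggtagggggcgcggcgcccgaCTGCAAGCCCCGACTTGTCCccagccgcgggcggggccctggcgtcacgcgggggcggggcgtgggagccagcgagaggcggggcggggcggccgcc
In the windows shown, the match begins 51 bases before the start in Cdkn1a, 195 in Ccng1 and 97 in Bbc3. Other start windows had best matches of 15 of 20 in Cdkn1a, of 15 and 14 of 20 in Bbc3 and of 14 of 20 in Sesn1. The shares that follow are per window, while the windows shown hold the best match of each gene. Matches of at least 19 of 20 bases were found in 29 of 32841 mouse start windows (0.0883%), and matches of at least 17 of 20 in 2067 (6.29%). A match is a description of these letters and does not show that p53 was bound.

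Libraries held 5908459 to 10692186 counts in the cultures, 4818443 to 5669876 in thymic ILC2, 3695522 to 5627406 in lung dKO ILC2 and 9671437 to 13065445 in lung Id1 ILC2. Levels are CPM, counts scaled to the library total, after TMM scaling, which does not remove gene length, and levels of different genes are compared only as TPM, which divides by it. Changes are log2 values ± their standard error, and a change passed at an adjusted p under 0.05 in edgeR's quasi-likelihood test with Benjamini-Hochberg adjustment over all tested genes. The labels do not say whether replicates are separate animals or cultures, so the p values measure the spread between these libraries, which may be technical. Summed CPM of Tcf3 and Tcf12 were 123 to 148 in DN1 floxed and 346 to 372 in DN1 control libraries on day 7, and 166 to 202 in DN3 floxed and 601 to 604 in DN3 control libraries. Floxed and control cultures also differed in sex: Xist, expressed in females, measured 582 to 1935 CPM in floxed and 4.48 to 68.3 CPM in control libraries. Genotype and sex cannot be told apart wherever floxed and control cultures are compared. The 10 stromal markers together reached 48.4 to 225 CPM on days 5 and 7, against 2131 to 10657 CPM on day 4, before any sort, and 1 DN1 floxed day 7 library, replicate b, held 8038 CPM of skeletal muscle markers against 61.1 CPM in replicate a. Markers of thymocytes were present in every culture library. The same sum of Tcf3 and Tcf12 was 108 to 134 CPM in lung dKO and 176 to 242 CPM in lung Id1 ILC2, and thymic dKO ILC2, at 278 to 289 CPM, have no control group of their own.

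The p53 targets covered a wide range of levels in the cultures. In DN1 control cultures on day 7, Cdkn1a (116 ± 14 TPM, mean ± SD, n = 2) and Ccng1 (106 ± 2.9 TPM) stood highest and did not differ from each other beyond their spread. Bbc3 (78.4 ± 2.0 TPM), Mdm2 (69.9 ± 2.3 TPM), Trp53inp1 (54.4 ± 1.7 TPM) and Phlda3 (32.7 ± 6.5 TPM) followed in that order, each apart from the next by more than their SDs. Sesn1 (13.3 ± 1.3 TPM) and Zmat3 (10.8 ± 0.043 TPM) were lower, and Eda2r (0.877 ± 0.57 TPM) was near the limit of detection. In DN3 floxed cultures on day 5 the order was another: Mdm2 (53.2 ± 0.51 TPM) and Trp53inp1 (42.3 ± 2.0 TPM) led, and Cdkn1a, at 10.5 ± 0.56 TPM, stood below Ccng1 (33.7 ± 0.69 TPM), Sesn1 (23.3 ± 1.4 TPM) and Bbc3 (20.5 ± 1.5 TPM).

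Between day 5 and day 7 most of the p53 targets rose in every culture, floxed and control. On day 7 against day 5, 7 of the 9 rose in DN1 floxed cultures, 8 in DN1 control, 6 in DN3 floxed and 8 in DN3 control cultures, and none fell. Of all 15172 tested genes, 12%, 6.45%, 13.6% and 10.5% rose in these 4 comparisons in the same order. The median log2 change of the 9 genes was 1.12, 1.63, 1.44 and 1.25, against 0.00, 0.04, -0.01 and 0.06 over all tested genes. The 9 genes were chosen with earlier results of these data known, so these shares and medians are a description and not a test. Bbc3, Zmat3, Phlda3, Mdm2, Ccng1 and Cdkn1a passed in all 4 cultures. In a fit of the 4 DN1 floxed libraries of days 5 and 7 alone, only 3 of the 7 passed there (Cdkn1a, Bbc3 and Zmat3). The counts were 7, 8, 6 and 7 in a fit without the day 4 libraries, and 7 in DN1 floxed cultures without replicate b of day 7, the library with muscle transcripts.

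Cdkn1a, the cell cycle inhibitor, rose by day 7 in all 4 cultures, and in floxed cultures it did so after a low on day 5. In DN3 floxed cultures Cdkn1a measured 72.9 and 50.2 CPM on day 4, 19.8 and 18.8 CPM on day 5 and 203 and 197 CPM on day 7. In DN3 control cultures Cdkn1a measured 80.3 and 65.3 CPM on day 4, 92.8 and 89.5 CPM on day 5 and 173 and 171 CPM on day 7. The DN3 floxed libraries of day 5 were the lowest of all 24 culture libraries, and those of day 7 stood above both control libraries of that day. In DN1 floxed cultures Cdkn1a measured 111 and 97.1 CPM on day 4, 75.2 and 71.2 CPM on day 5 and 178 and 210.5 CPM on day 7. In DN1 control cultures it measured 103 and 107 CPM on day 4, 129 and 128 CPM on day 5 and 200.5 and 236 CPM on day 7. The floxed libraries thus dipped on day 5 where the control libraries did not, and the ranges of the 2 genotypes overlapped again on day 7. On day 7 against day 5 Cdkn1a rose by 3.37 ± 0.16 in DN3 floxed (adjusted p = 2.08e-10), 0.92 ± 0.14 in DN3 control (0.000133), 1.41 ± 0.14 in DN1 floxed (4.37e-06) and 0.76 ± 0.14 in DN1 control cultures (0.00126). These 4 calls held under every alternative tried.

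Ccng1, the cyclin G1 gene, also rose by day 7 in each culture. It measured 167 and 182 CPM on day 7 and 97.0 and 106 CPM on day 5 in DN1 floxed cultures, and 194 and 200.1 CPM on day 7 and 84.7 and 95.7 CPM on day 5 in DN1 control cultures. It measured 158 and 159.9 CPM on day 7 and 59.7 and 62.8 CPM on day 5 in DN3 floxed cultures, and 139 CPM in both libraries on day 7 and 73.2 and 75.9 CPM on day 5 in DN3 control cultures. The days did not overlap in any culture. The increases were 0.78 ± 0.11 in DN1 floxed (adjusted p = 7.52e-05), 1.13 ± 0.11 in DN1 control (5.04e-06), 1.37 ± 0.11 in DN3 floxed (5.6e-08) and 0.90 ± 0.11 in DN3 control cultures (1.66e-05). Mdm2, the ubiquitin ligase that limits p53, also passed in all 4 cultures. Its day 7 levels lay between 183 and 262 CPM and its day 5 levels between 121 and 143 CPM over all 4 cultures, without overlap. Its log2 increases ran from 0.47 ± 0.12 in DN1 control (adjusted p = 0.0111) to 0.79 ± 0.12 in DN1 floxed cultures (0.000134). The DN1 control call was lost without replicate c of day 5, replicate d of day 5 or replicate c of day 7.

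**Figure D1:**
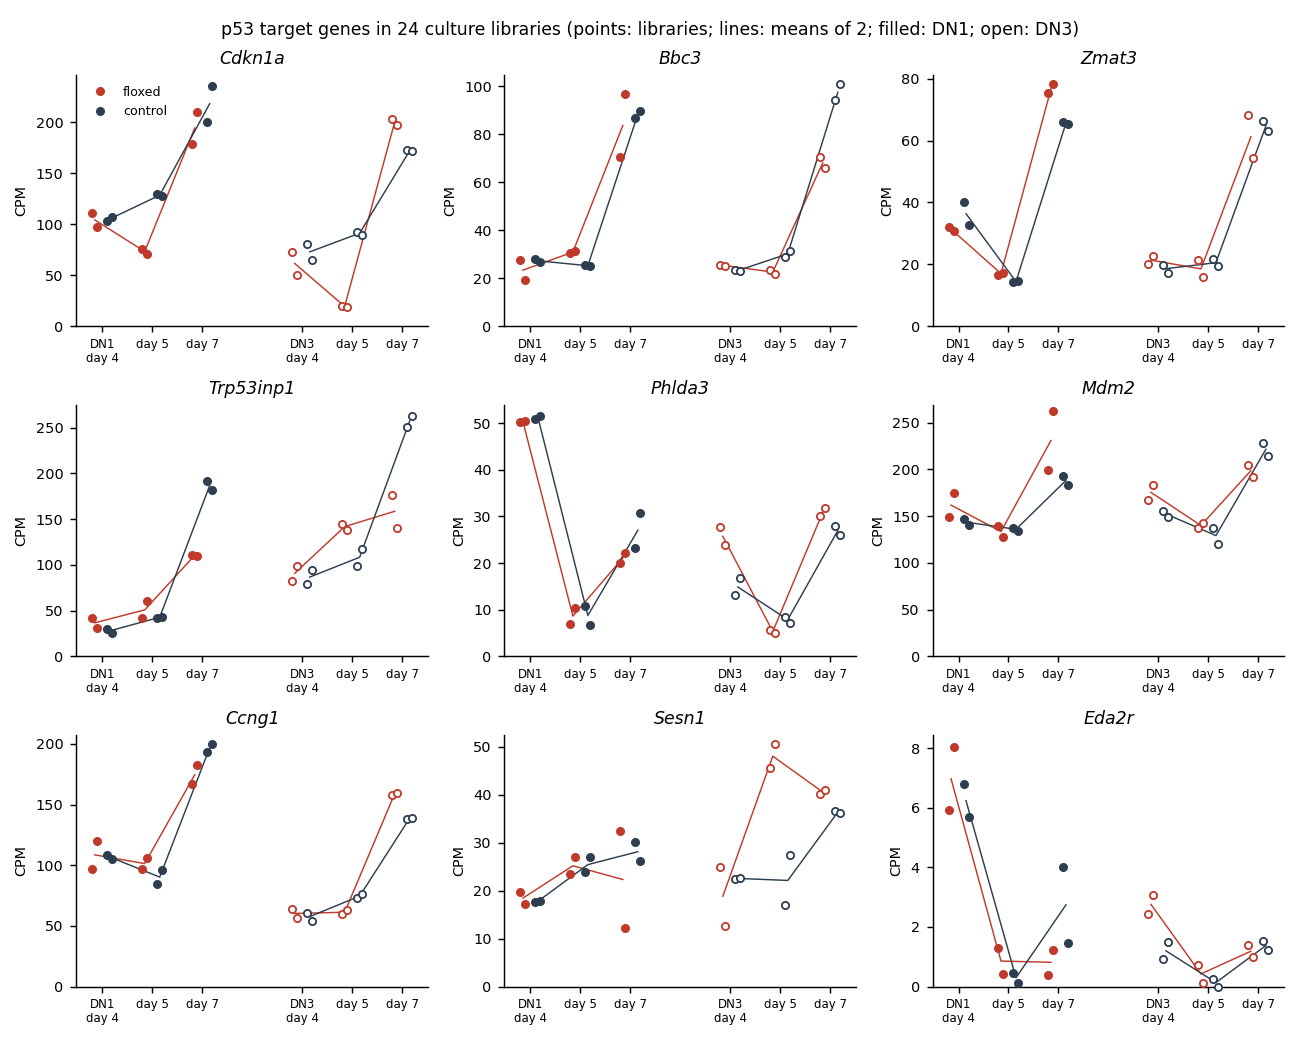
TMM-scaled CPM of each of the 9 genes in the 24 culture libraries on days 4, 5 and 7, one panel per gene with a linear axis from 0. Points are libraries, filled for DN1 and open for DN3, red for floxed and dark for control, and lines join the means of 2 libraries. Cdkn1a of DN3 floxed cultures dips to 19.8 and 18.8 CPM on day 5 and stands at 203 and 197 CPM on day 7.

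Among the genes of cell death, Bbc3 and Phlda3 rose in all 4 cultures by day 7 and Trp53inp1 in 3. Bbc3, the Puma gene, measured 70.5 and 96.7 CPM on day 7 and 30.3 and 31.4 CPM on day 5 in DN1 floxed cultures, and 86.9 and 89.6 CPM on day 7 and 25.5 and 24.9 CPM on day 5 in DN1 control cultures. In DN3 floxed cultures Bbc3 measured 70.4 and 65.7 CPM on day 7 and 23.4 and 21.6 CPM on day 5, and in DN3 control cultures 94.1 and 101 CPM on day 7 and 28.9 and 31.3 CPM on day 5. Every day 7 library stood above every day 5 library, and the day 4 libraries (19.1 to 27.9 CPM) were close to those of day 5. Its increases were 1.44 ± 0.15 (DN1 floxed, adjusted p = 6.18e-06), 1.81 ± 0.15 (DN1 control, 1.46e-06), 1.59 ± 0.15 (DN3 floxed, 3.58e-07) and 1.69 ± 0.15 (DN3 control, 9.41e-07). Bbc3 passed in each of the 4 cultures under all alternatives.

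Trp53inp1, whose protein promotes p53-dependent death, rose in 3 of the 4 cultures. It measured 111 and 109.8 CPM on day 7 and 41.5 and 60.1 CPM on day 5 in DN1 floxed cultures (1.12 ± 0.17, adjusted p = 0.000139), and 191 and 182 CPM on day 7 and 42.0 and 43.4 CPM on day 5 in DN1 control cultures (2.13 ± 0.17, 7.92e-07). In DN3 control cultures it measured 251 and 263 CPM on day 7 and 99.3 and 117 CPM on day 5 (1.25 ± 0.16, 2.66e-05). In DN3 floxed cultures the 2 days overlapped, with 177 and 141 CPM on day 7 and 145 and 139 CPM on day 5, and the difference did not pass (0.16 ± 0.16, adjusted p = 0.526).

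Phlda3 and Zmat3 had their lowest levels on day 5 in most cultures. Phlda3, the restrainer of Akt, measured 20.04 and 22.1 CPM on day 7 and 6.97 and 10.3 CPM on day 5 in DN1 floxed cultures, and 30.1 and 31.7 CPM on day 7 and 5.68 and 4.97 CPM on day 5 in DN3 floxed cultures. In control cultures Phlda3 measured 23.3 and 30.8 CPM on day 7 and 10.7 and 6.80 CPM on day 5 for DN1, and 28.0 and 25.9 CPM on day 7 and 8.53 and 7.21 CPM on day 5 for DN3. No day 5 library reached any day 7 library. Its increases ran from 1.28 ± 0.22 in DN1 floxed (adjusted p = 0.000404) to 2.53 ± 0.22 in DN3 floxed cultures (1.18e-07). Zmat3, the RNA-binding protein, measured 54.3 to 78.2 CPM in the 8 libraries of day 7 and 14.1 to 21.6 CPM in the 8 of day 5, which did not overlap. Zmat3 rose by 2.17 ± 0.15 in DN1 floxed (adjusted p = 5.78e-08), 2.19 ± 0.16 in DN1 control (3.24e-07), 1.72 ± 0.15 in DN3 floxed (1.24e-07) and 1.66 ± 0.15 in DN3 control cultures (1.15e-06).

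Sesn1 and Eda2r did not follow the others. Sesn1, the sestrin, measured 32.4 and 12.3 CPM on day 7 and 23.5 and 26.9 CPM on day 5 in DN1 floxed cultures, and 30.1 and 26.1 CPM on day 7 and 23.9 and 26.9 CPM on day 5 in DN1 control cultures. In DN3 floxed cultures Sesn1 measured 40.1 and 41.0 CPM on day 7 and 45.5 and 50.6 CPM on day 5, and in DN3 control cultures 36.7 and 36.1 CPM on day 7 and 16.9 and 27.4 CPM on day 5. The days overlapped in both DN1 cultures, and no difference between days 7 and 5 passed (log2 differences -0.17, 0.14, -0.24 and 0.72, adjusted p from 0.114 to 0.823). The days did not overlap in DN3 control cultures, where Sesn1 passed without the filter on low counts (0.71, adjusted p = 0.0053) and in a fit of the compared groups alone (0.70, 0.0177). The low DN1 floxed value of day 7 belongs to replicate b, which held the muscle transcripts, and with replicate a left out the difference from day 5 was -1.05 (adjusted p = 0.0115). Eda2r, the receptor, was counted 34 and 12 times on day 7 and 3 and 1 times on day 5 in DN1 control cultures, a log2 increase of 3.20 ± 0.81 (adjusted p = 0.0129) that was lost without either day 5 library or without replicate c of day 7. In DN3 control cultures Eda2r had 23 counts on day 7 and 2 on day 5, a ratio of 10.04 with a 95% counting interval of 2.48 to 87.9 (adjusted p = 0.0287, lost in a fit without the day 4 libraries, without replicate d of day 5 or without either library of day 7). In floxed cultures it had 3 and 9 counts on day 7 and 9 and 3 on day 5 for DN1, and 8 and 7 on day 7 and 6 and 1 on day 5 for DN3, and neither difference passed.

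**Figure D2:**
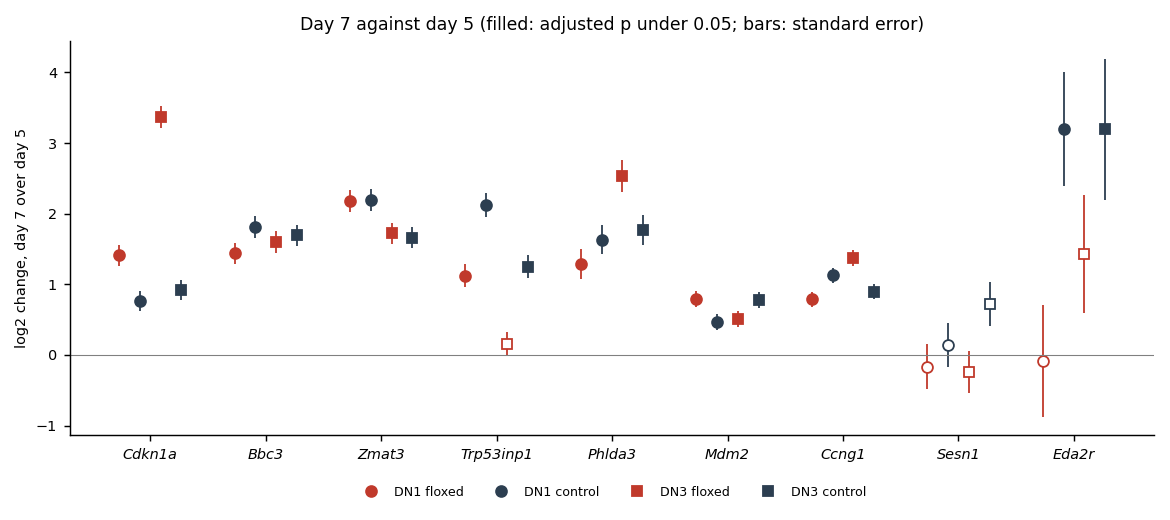
Log2 change of each gene on day 7 against day 5 in DN1 floxed, DN1 control, DN3 floxed and DN3 control cultures, with the standard error as bars. Circles are DN1 and squares DN3, and filled symbols passed at an adjusted p under 0.05. Sesn1 is the gene without a filled symbol. Cdkn1a of DN3 floxed cultures stands highest of the genes with more than a few counts, at 3.37, while Eda2r of DN3 control cultures rests on 2 counts of day 5.

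Between day 4 and day 5 the direction was mixed, and this step also took in the 4-OHT and the sort. On day 5 against day 4, 1 of the 9 genes rose and 4 fell in DN1 floxed cultures, 1 rose and 3 fell in DN1 control, 2 rose and 3 fell in DN3 floxed, and 1 rose and 1 fell in DN3 control cultures. Of all tested genes 31.0%, 40.5%, 20.3% and 14.2% passed in these comparisons in the same order, so the shares for the 9 genes are read against a large background. Phlda3 fell in each culture, from -0.92 ± 0.22 in DN3 control (adjusted p = 0.0063) to -2.56 ± 0.21 in DN1 control cultures (9.09e-09), and its day 4 levels were 50.3 and 50.5 CPM in DN1 floxed and 51.0 and 51.6 CPM in DN1 control libraries, against 27.7 and 23.8 CPM in DN3 floxed and 13.1 and 16.7 CPM in DN3 control libraries. Stromal markers on day 4 stood in the same order as the Phlda3 means, at 7692 to 8554 CPM in DN1 floxed, 9897 to 10657 CPM in DN1 control, 3218 to 3701 CPM in DN3 floxed and 2131 to 2279 CPM in DN3 control libraries. Their part in the fall of Phlda3 was not tested. The DN3 control call of Phlda3 was lost without replicate d of either day.

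Eda2r fell in 3 of the 4 cultures. No library of day 5 held more than 9 counts. On day 4 it was counted 63 and 53 times in DN1 floxed and 57 and 40 times in DN1 control libraries, and 18 and 26 times in DN3 floxed and 6 and 13 times in DN3 control libraries. The decrease passed in DN1 floxed (-2.99 ± 0.63, adjusted p = 0.00103), DN1 control (-4.38 ± 0.76, 0.000113) and DN3 floxed cultures (-2.66 ± 0.73, 0.0126, lost without replicate b of either day), and in DN3 control cultures the ratio was 0.109 with a counting interval of 0.0123 to 0.450 (adjusted p = 0.0549). Zmat3 fell by 0.89 ± 0.16 in DN1 floxed (adjusted p = 0.000176) and by 1.34 ± 0.16 in DN1 control cultures (1.21e-06), and its DN3 values of day 4 (17.3 to 22.6 CPM) overlapped those of day 5. Cdkn1a fell in floxed cultures, by 1.67 ± 0.16 in DN3 (adjusted p = 1.32e-07) and by 0.51 ± 0.14 in DN1 (0.00926), and did not pass in either control culture. The DN1 call for Cdkn1a was lost without replicate a of day 4 or replicate b of day 5. Trp53inp1 rose in DN1 floxed (0.46 ± 0.17, adjusted p = 0.0468), DN1 control (0.61 ± 0.18, 0.00834) and DN3 floxed cultures (0.64 ± 0.16, 0.00636), calls that were lost in 6, 2 and 1 of 9 alternatives. Sesn1 rose in DN3 floxed cultures (1.36 ± 0.31, adjusted p = 0.00347; 0.125 without replicate b of day 4), and Ccng1 in DN3 control cultures (0.37 ± 0.11, 0.0297, lost in 7 of 9 alternatives). Bbc3 (-0.17 to 0.39) and Mdm2 (-0.33 to -0.08) passed in no culture, but Mdm2 fell in DN3 floxed cultures with the replicate letter as a block (adjusted p = 0.0499). RLE size factors and DESeq2 each gave 5 falling genes in DN1 floxed, 4 in DN1 control and 4 in DN3 floxed cultures. The common fit gave 4, 3 and 3 there.

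Floxed cultures had a lower Cdkn1a level than control cultures on day 5 and a lower Trp53inp1 level on day 7. Before 4-OHT, on day 4, none of the 9 genes passed between floxed and control cultures, with 0.105% of all genes called for DN1 and 0.442% for DN3. In each of these comparisons 1 of the 9 had an unadjusted p under 0.05, and DESeq2 also called 0. The log2 differences of day 4 ran from -0.21 to 0.40 in DN1 and from -0.27 to 1.17 in DN3 cultures. On day 5 Cdkn1a was the 1 of 9 genes that passed in DN1 cultures, with 75.2 and 71.2 CPM in floxed and 129 and 128 CPM in control libraries (-0.81 ± 0.14, adjusted p = 0.00177, 5.02% of all genes called). In DN3 cultures it measured 19.8 and 18.8 CPM in floxed and 92.8 and 89.5 CPM in control libraries (-2.24 ± 0.16, adjusted p = 4.28e-08, 9.76% of all genes called). The genotypes did not overlap in either, and both calls held under all alternatives, with log2 changes of -0.84 to -0.77 in DN1 and -2.28 to -2.20 in DN3. On day 7 Cdkn1a did not pass, with a log2 difference of 0.22 ± 0.14 in DN3 (adjusted p = 0.288) and overlapping libraries in DN1.

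**Figure D3:**
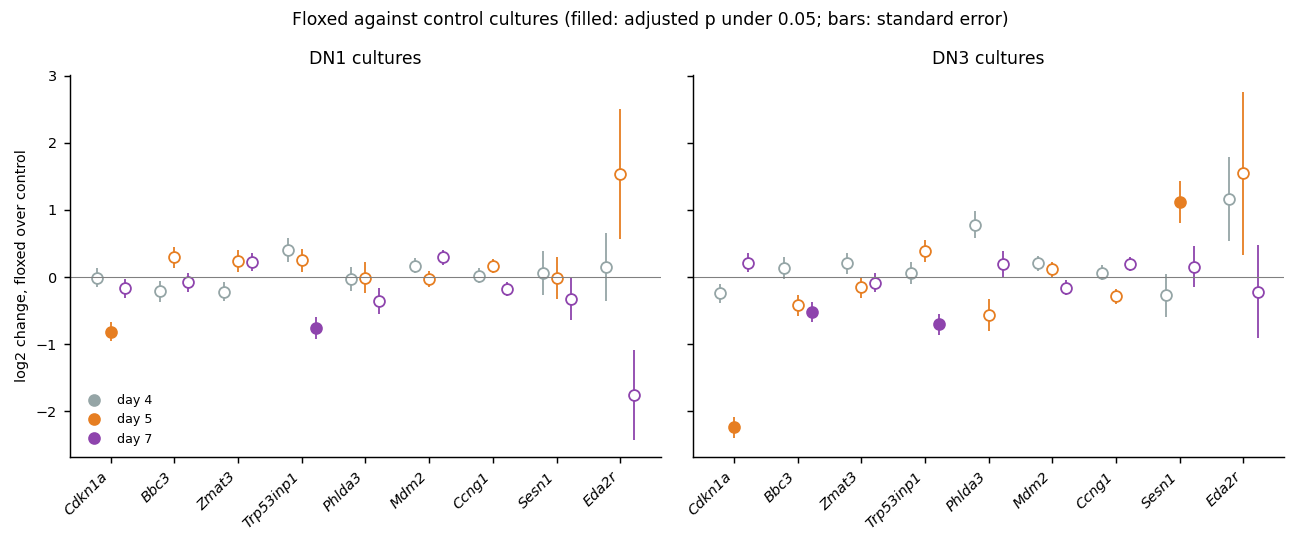
Log2 difference of floxed over control cultures for each gene on days 4, 5 and 7, with the standard error as bars, in one panel for DN1 and one for DN3. Values below 0 are lower in floxed cultures. Cdkn1a lies at -0.81 in DN1 and at -2.24 in DN3 on day 5, and Trp53inp1 at -0.76 and -0.70 on day 7.

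Sesn1 was the other gene of the 9 that passed on day 5 in DN3 cultures, in the opposite direction. It measured 45.5 and 50.6 CPM in floxed and 16.9 and 27.4 CPM in control libraries, without overlap (1.12 ± 0.31, adjusted p = 0.0268), and the call was lost without floxed replicate a or b or control replicate c, with adjusted p up to 0.273. Bbc3 (-0.42 ± 0.16, adjusted p = 0.103) and Phlda3 (-0.56 ± 0.24, 0.164) did not pass in DN3 cultures on day 5. Eda2r had 7 counts in floxed and 2 in control libraries there, a ratio of 3.15 with a counting interval of 0.599 to 31.0. Trp53inp1 (0.39 ± 0.16, adjusted p = 0.14), Ccng1 (-0.28 ± 0.11, 0.123), Zmat3 (-0.15 ± 0.16, 0.633) and Mdm2 (0.12 ± 0.12, 0.611) did not pass there. In DN1 cultures of day 5 the 7 genes other than Cdkn1a and Eda2r lay between -0.03 and 0.29, and Eda2r at 1.54 ± 0.97.

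On day 7 Trp53inp1 was lower in floxed cultures of both stages. It measured 111 and 109.8 CPM in DN1 floxed and 191 and 182 CPM in DN1 control libraries (-0.76 ± 0.16, adjusted p = 0.00202), and 177 and 141 CPM in DN3 floxed and 251 and 263 CPM in DN3 control libraries (-0.70 ± 0.16, 0.00267). The genotypes did not overlap. The DN3 call was lost without floxed replicate b (adjusted p = 0.0674). Bbc3 passed in DN3 cultures, with 70.4 and 65.7 CPM in floxed and 94.1 and 101 CPM in control libraries (-0.52 ± 0.14, adjusted p = 0.0117), and lost its call without floxed replicate b or control replicate d. With 1 of 9 genes called in DN1 and 2 of 9 in DN3 cultures, the shares were no higher than those of all tested genes, 22.5% and 24.9%. The DN1 count over all genes, 3412, was 1688 without floxed replicate b and 5803 without floxed replicate a. ILC2 markers differed between these same libraries, with 2015 to 2548 CPM in DN1 floxed and 1433 to 1722 CPM in DN3 floxed libraries of day 7 against 396 to 489 CPM in the 4 control libraries of that day, and their part in the differences was not tested. Fewer cells of a type and less RNA per cell cannot be told apart in these bulk samples. Mdm2 (0.30 ± 0.11, adjusted p = 0.0712) and Eda2r (-1.75 ± 0.67, 0.0657) did not pass in DN1 cultures on day 7. Sesn1 did not pass there either, but with floxed replicate a left out it was lower than in control cultures (-1.21, adjusted p = 0.00386), which rests on replicate b alone. The log2 differences of the remaining genes on day 7 ran from -0.36 (Phlda3) to 0.22 (Zmat3) in DN1 and from -0.22 (Eda2r) to 0.20 (Phlda3) in DN3 cultures.

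The genotype difference itself was compared between days. For Cdkn1a in DN3 cultures it changed by -1.996 ± 0.21 from day 4 to day 5 (adjusted p = 0.00011) and by 2.46 ± 0.21 from day 5 to day 7 (5.85e-06). For Trp53inp1 it changed by -1.16 ± 0.24 from day 4 to day 7 in DN1 (adjusted p = 0.00442) and by -0.77 ± 0.23 in DN3 cultures (0.032, lost in 5 of 13 alternatives with adjusted p up to 0.172), and from day 5 to day 7 by -1.01 ± 0.23 in DN1 (0.0349) and -1.09 ± 0.22 in DN3 cultures (0.00666). For Phlda3 in DN3 cultures it changed by -1.34 ± 0.31 from day 4 to day 5 (adjusted p = 0.0399), a call lost in 10 of 13 alternatives. Of all genes 0.679% passed in DN1 and 1.42% in DN3 cultures from day 4 to day 5, 7.78% and 12.3% from day 4 to day 7, and 1.63% and 7.2% from day 5 to day 7, against 0, 2, 1, 1, 1 and 2 of the 9 genes in that order. The day 5 to day 7 comparisons were added after the data were seen. The DN1 change of Trp53inp1 from day 5 to day 7 was lost in 8 of 14 alternatives.

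The Cdkn1a difference on day 5 was larger in DN3 than in DN1 cultures, by 1.43 ± 0.21 (DN1 minus DN3, adjusted p = 0.00164, with 1.36% of all genes called), a comparison also added after the data were seen. On day 7 none of the 9 genes differed in its genotype effect between DN1 and DN3, with 3 at an unadjusted p under 0.05, 0 called by DESeq2 and 7.79% of all genes called by edgeR. Among control cultures, DN1 against DN3, 3 of the 9 genes passed on day 5 (30.0% of all genes) and 2 on day 7 (22.6%), so both shares were near the background. Trp53inp1 was lower in DN1 than in DN3 control cultures on both days (-1.34 ± 0.17, adjusted p = 5.58e-06 on day 5; -0.46 ± 0.16, 0.039 on day 7), with 42.0 and 43.4 CPM in DN1 and 99.3 and 117 CPM in DN3 libraries of day 5. Cdkn1a was higher in DN1 on day 5 (0.49 ± 0.14, 0.0116), Zmat3 lower on day 5 (-0.51 ± 0.16, 0.0218) and Ccng1 higher on day 7 (0.50 ± 0.11, 0.0018). The day 5 calls of Cdkn1a and Zmat3 and the day 7 call of Trp53inp1 were each lost when some single libraries were left out. The genes that did not pass lay between -0.26 and 0.99 on day 5 and between -0.37 and 1.002 on day 7.

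The wider p53 pathway was read from 28 further target genes. On day 7 against day 5, 6 of the 28 rose and 1 fell in DN1 floxed cultures, 8 rose in DN1 control, 15 in DN3 floxed and 16 in DN3 control cultures, and none fell in the last 3. Of all tested genes 12%, 6.45%, 13.6% and 10.5% rose and 9.47%, 6.65%, 10.9% and 9.73% fell in the same order. The median log2 changes of the 28 genes were 0.29, 0.46, 0.86 and 0.66, all below those of the 9 genes and above those of all tested genes. Both lists were chosen with earlier results of these data known, so this order is a description and not a test. Pmaip1, which encodes the BH3-only protein Noxa, rose in all 4 cultures, by 0.90 ± 0.27 in DN1 floxed (adjusted p = 0.0216), 0.89 ± 0.26 in DN1 control (0.0273), 2.32 ± 0.34 in DN3 floxed (3.79e-05) and 2.15 ± 0.29 in DN3 control cultures (4.89e-05). Pvt1, a long non-coding RNA gene, and Ak1, an adenylate kinase, also rose in all 4, Pvt1 by 1.14 to 1.81 and Ak1 by 1.83 to 3.14. The other calls named here passed in some cultures, and differences between cultures were not tested for them. Sesn2, another sestrin, rose by 1.46 ± 0.23 in DN3 floxed and 1.41 ± 0.24 in DN3 control cultures. Tap1, a peptide transporter, rose by 1.05 ± 0.12 in DN3 floxed and 1.20 ± 0.12 in DN3 control cultures, and the apoptosis effector Bax by 1.21 ± 0.20 in DN3 floxed cultures. Fas, a death receptor, rose by 2.46 ± 0.44 in DN1 control and 0.89 ± 0.30 in DN3 control cultures. In DN1 floxed cultures Btg2 (0.68 ± 0.16), the nuclease gene Aen (0.39 ± 0.13) and Tigar (1.28 ± 0.34) completed the 6, and in DN1 control cultures Btg2, Ei24, Ercc5 and Ephx1 rose by 0.51 to 1.74. In DN3 cultures Plk2, Tnfrsf10b, Aen, Ei24, Polk and Ercc5 rose in both genotypes, Plk3 and Rps27l in floxed and Btg2, Gadd45a and Sfn in control cultures, by 0.36 to 2.24. Perp rose by 3.09 ± 0.96 in DN3 floxed cultures. Perp had 12 counts on day 7 and 0 on day 5 in DN3 control cultures. That is 3.49-fold higher against a floor of 3 counts over the day 5 group, with the counting error of the 12 counts left out. By role, 2, 2, 3 and 5 of 7 cell cycle targets, 2, 3, 6 and 6 of 9 apoptosis targets and 2, 3, 6 and 5 of 12 repair and metabolism targets rose in DN1 floxed, DN1 control, DN3 floxed and DN3 control cultures, and Gtse1, a cell cycle target, was the 1 that fell (-0.93 ± 0.32 in DN1 floxed cultures, adjusted p = 0.0439). These small counts by role are read beside the shares of all tested genes given above.

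**Figure D4:**
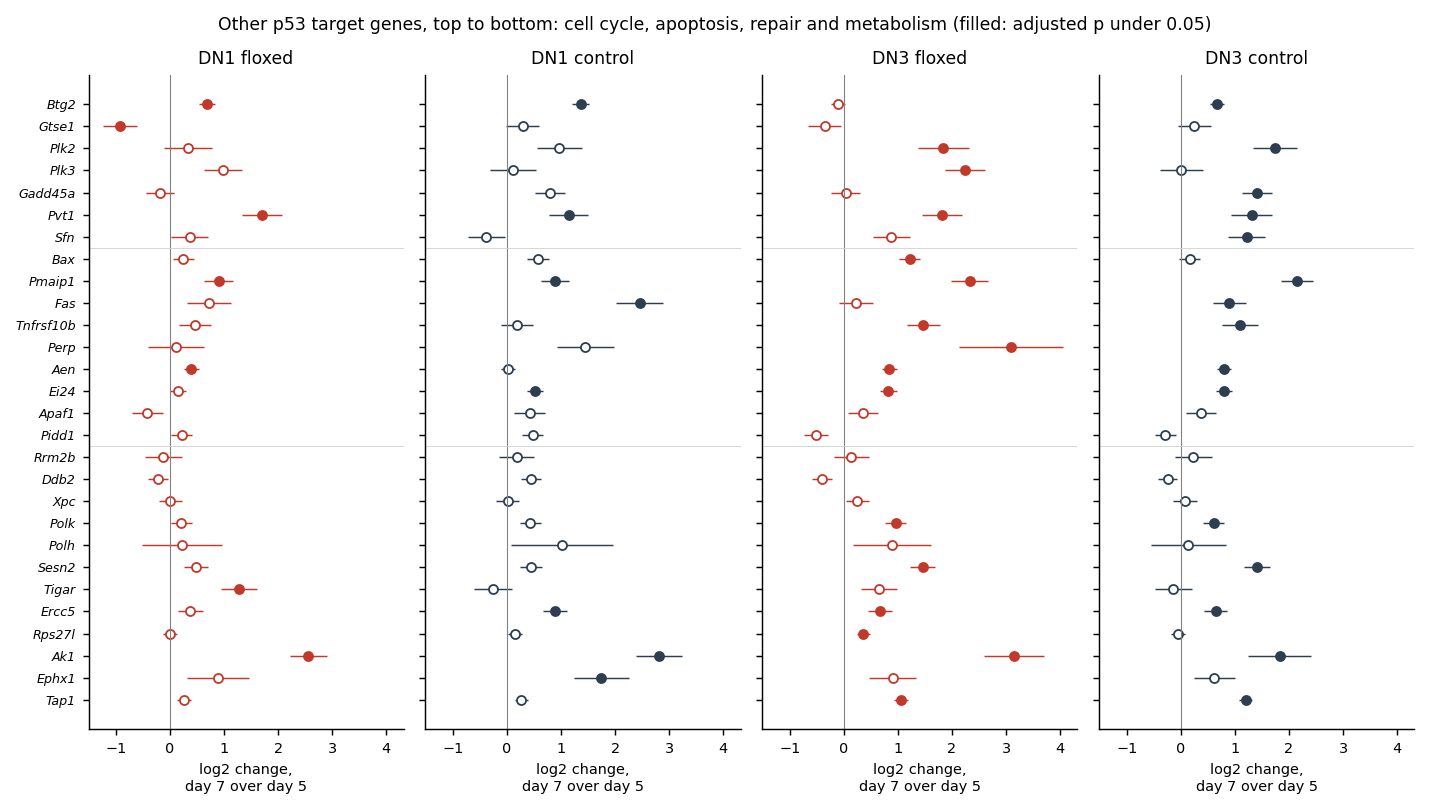
Log2 change on day 7 against day 5 of the 28 further p53 targets in the 4 cultures, grouped from top to bottom into cell cycle, apoptosis, and repair and metabolism genes, with the standard error as bars. Filled symbols passed at an adjusted p under 0.05. Perp in DN3 control cultures is left out because its day 5 libraries held 0 counts, and most filled symbols lie to the right of 0.

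Trp53 itself, the gene of p53, was expressed at group means of 22.9 to 40.5 CPM in the cultures and fell on day 7 against day 5 in DN3 control cultures (-0.77 ± 0.16, adjusted p = 0.00228). Mdm4, a partner of Mdm2 in holding p53 down, rose by 0.62 ± 0.12 in DN1 floxed, 0.66 ± 0.12 in DN1 control and 0.63 ± 0.12 in DN3 control cultures. Cdkn2a, whose alternative product Arf blocks Mdm2, rose by 3.37 ± 0.43 in DN3 floxed and 2.46 ± 0.48 in DN3 control cultures. Usp7, a deubiquitinase of p53 and Mdm2, fell by 0.40 ± 0.10 in DN1 floxed, 0.32 ± 0.10 in DN1 control and 0.33 ± 0.10 in DN3 floxed cultures, and the checkpoint kinase gene Chek1 by 0.61 ± 0.17 in DN1 floxed, 0.79 ± 0.17 in DN3 floxed and 0.55 ± 0.16 in DN3 control cultures. Of 10 genes of p53 and its regulators, 1, 1, 1 and 2 rose and 2, 1, 2 and 2 fell in DN1 floxed, DN1 control, DN3 floxed and DN3 control cultures. Of all tested genes 12%, 6.45%, 13.6% and 10.5% rose and 9.47%, 6.65%, 10.9% and 9.73% fell, so the counts of these 10 genes are near the background. Cell division genes moved the other way from the p53 targets over the same days: 10, 6, 11 and 10 of 12 fell in the same order of cultures, beside 9.47%, 6.65%, 10.9% and 9.73% of all tested genes. The median log2 changes of the 12 were -0.54, -0.50, -0.87 and -0.81.

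Between genotypes, those of the 28 further targets that passed went in both directions. None of the 28 passed in DN1 cultures on day 5, where DN3 cultures had 1 higher, Gadd45a, a growth arrest gene (1.08 ± 0.29, adjusted p = 0.0207), and 1 lower, Pidd1, a death domain protein (-1.13 ± 0.20, 0.000999). Of all tested genes 5.02% in DN1 and 9.76% in DN3 cultures passed on day 5, so the day 5 counts are no higher than the background. On day 7, 3 were higher and 3 lower in DN1 floxed than in DN1 control cultures, and 4 were higher and 4 lower in DN3, so that 6 and 8 of 28 passed beside 22.5% and 24.9% of all genes, which is near the background. The polo-like kinase gene Plk3 was higher in both (2.18 ± 0.37 in DN1, adjusted p = 0.000341; 1.98 ± 0.36 in DN3, 0.000438). Btg2, an antiproliferative gene, was lower in DN3 floxed cultures (-1.06 ± 0.13, 1.1e-05), and so were Pmaip1 (-0.83 ± 0.27, 0.0302), Fas (-0.98 ± 0.31, 0.0247) and Pidd1 (-1.36 ± 0.21, 8.86e-05), while Bax (0.55 ± 0.19, 0.0444), the death receptor gene Tnfrsf10b (0.83 ± 0.29, 0.0424) and the repair gene Xpc (0.64 ± 0.22, 0.0389) were higher. In DN1 floxed cultures Ak1 (1.23 ± 0.30, adjusted p = 0.00615) and Tigar (1.43 ± 0.33, 0.0044), both metabolic targets, were higher, and Gtse1 (-1.29 ± 0.31, 0.00623), Ei24 (-0.44 ± 0.14, 0.033) and Ercc5 (-0.76 ± 0.22, 0.0162) were lower. Cell division genes were lower in DN3 floxed cultures, 9 of 12 on day 5 and 9 of 12 on day 7, and 0 and 2 of 12 in DN1. Of all 15172 tested genes, 789 and 1816 were lower in DN3 and 373 and 1564 in DN1 floxed cultures on these days. Usp7 was lower in floxed cultures at all 4 points after 4-OHT (-0.38 and -0.47 in DN1 and -0.58 and -0.76 in DN3 on days 5 and 7).

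Freshly isolated thymic ILC2 had little or no transcript of several p53 targets that were abundant in the cultures. In a common scaling of all 26 libraries of the thymus table, Cdkn1a measured 10.9 and 4.10 CPM in thymic ILC2 against 173 and 207 CPM in DN1 floxed and 198 and 192 CPM in DN3 floxed cultures of day 7. Bbc3, Phlda3 and Eda2r had no count in either thymic ILC2 library. Zmat3 measured 6.10 and 17.98 CPM in thymic ILC2, against 73.1 and 76.8 CPM in DN1 floxed and 66.4 and 53.1 CPM in DN3 floxed cultures. None of these levels overlapped those of the cultures. Relative to DN1 and DN3 floxed cultures of day 7, Cdkn1a was lower by log2 differences of -4.66 ± 0.25 (adjusted p = 1.6e-13) and -4.70 ± 0.25 (1.49e-13), and Zmat3 by -2.63 ± 0.26 (9.01e-09) and -2.30 ± 0.26 (8.57e-08). Against a floor of 3 counts over the thymic ILC2 group, Bbc3 was 170-fold and 139-fold lower, Phlda3 43.0-fold and 63.4-fold lower and Eda2r 1.63-fold and 2.38-fold lower. These folds leave out the counting error of the cultures, which held 12 and 15 counts of Eda2r. The calls of Eda2r were lost in 4 and 2 of 7 alternatives.

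The other 4 genes were well expressed in thymic ILC2. Sesn1 measured 76.4 and 78.6 CPM in thymic ILC2 against 31.4 and 12.1 CPM in DN1 floxed and 39.1 and 40.0 CPM in DN3 floxed cultures, higher by 1.83 ± 0.31 (adjusted p = 1.65e-05) and 0.97 ± 0.30 (0.00599). Ccng1 measured 203 and 198 CPM in thymic ILC2 against 162 and 179 CPM in DN1 floxed (0.24 ± 0.11, adjusted p = 0.0679) and 154 and 156 CPM in DN3 floxed cultures (0.37 ± 0.11, 0.00606), a call lost without the filter on low counts and without DN3 floxed replicate a or b (adjusted p up to 0.0942). Trp53inp1, at 116 and 134 CPM, did not pass against DN1 floxed (108 CPM in both libraries, 0.22 ± 0.17, adjusted p = 0.251) or DN3 floxed cultures (172 and 137 CPM, -0.30 ± 0.17, 0.117). Mdm2, at 111 and 141 CPM, was lower than in DN1 floxed (194 and 257 CPM, -0.84 ± 0.14, 1.02e-05) and DN3 floxed cultures (199.9 and 188 CPM, -0.62 ± 0.14, 0.000359). In all, 7 and 8 of the 9 genes passed, beside 73.7% and 71.8% of all tested genes, so the number of calls is near the background. The median of all tested genes was -0.26 and -0.20, with thymic ILC2 at TMM factors of 0.550 and 0.658, and under the size factors of DESeq2 Trp53inp1 and Ccng1 passed as higher than in DN1 floxed cultures while Mdm2 no longer passed against DN3. Of the 28 further targets, 7 were higher and 17 lower than in DN1 floxed, and 4 higher and 19 lower than in DN3 floxed cultures. Culture and fresh isolation go with the groups here and cannot be told apart from the cell type. Neither can the Cre, which was plck-Cre in thymic ILC2 and R26-CreERT2 with 4-OHT in the cultures. The same holds for sex, with Xist at 0.315 to 0.321 CPM in thymic ILC2 and 1325 to 1935 CPM in floxed cultures of day 7. ILC2 markers added up to 1102 to 1892 CPM and those of alpha-beta T cells to 707 to 1268 CPM in the thymic ILC2 libraries.

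**Figure D5:**
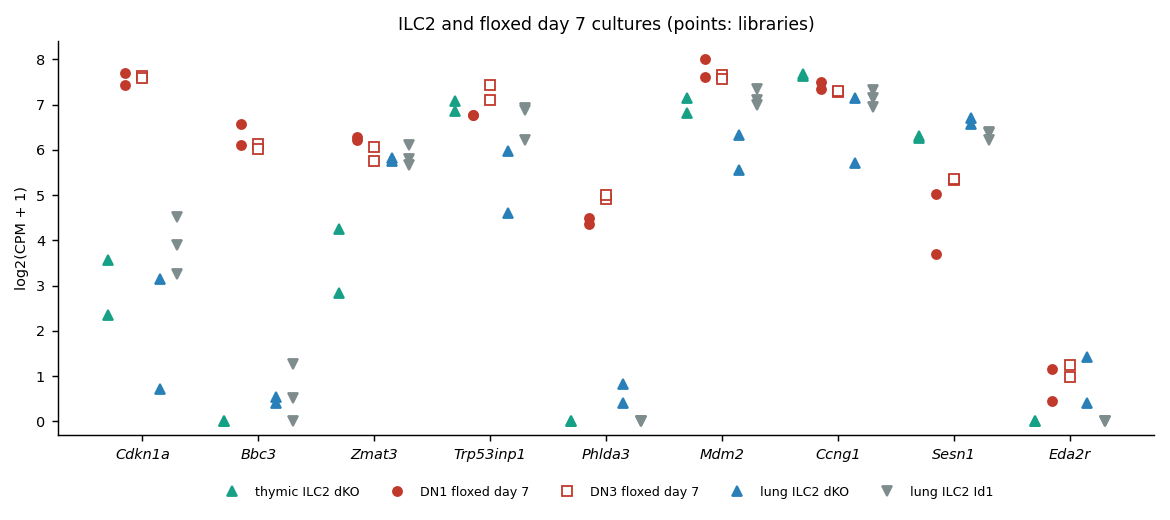
Log2(CPM + 1) of the 9 genes in single libraries of thymic dKO ILC2, DN1 floxed and DN3 floxed cultures of day 7, lung dKO ILC2 and lung Id1 ILC2. Thymus and lung tables were scaled separately, so that levels are compared within a table. Bbc3, Phlda3 and Eda2r lie at 0 in thymic ILC2, while Ccng1, Mdm2, Trp53inp1 and Sesn1 are present in every group.

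Bbc3, Phlda3 and Eda2r were near 0 in lung ILC2 as well. Bbc3 was counted 3 and 1 times in dKO and 6, 11 and 0 times in Id1 libraries, and was left untested by the filter on low counts, like Phlda3 and Eda2r. Phlda3 had 5 and 1 counts in dKO and 0 in all 3 Id1 libraries, and Eda2r 11 and 1 counts in dKO and 0 in Id1 libraries. Most of these counts were in dKO replicate 1. Against a floor of 3 counts over the Id1 group, Phlda3 was 7.36-fold and Eda2r 14.7-fold higher in dKO. The counting error of the few dKO counts is left out, so these folds are not lower bounds. Markers of other cell types differed between the same libraries: 10 stromal markers added up to 79.4 to 122 CPM in dKO and 2.87 to 16.4 CPM in Id1 libraries, 5 B cell markers to 18.5 to 33.4 CPM in dKO and 0.281 to 2.82 CPM in Id1, and 8 skeletal muscle markers to 63.5 to 165 CPM in dKO and 14.6 to 21.2 CPM in Id1. Their part in the counts of Phlda3 and Eda2r was not tested. In TPM, Ccng1 (48.8 ± 51 in dKO, SD, n = 2; 84.1 ± 21 in Id1, n = 3), Mdm2 (20.4 ± 18 in dKO; 58.7 ± 16 in Id1) and Sesn1 (37.5 ± 24 in dKO; 43.8 ± 17 in Id1) were well expressed in both groups. The dKO means did not differ from each other beyond their spread, so no order is read from them.

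None of the 6 tested genes passed between dKO and Id1 lung ILC2 in edgeR, where 18.1% of all genes did, and 2 had an unadjusted p under 0.05, while DESeq2 called 1. Mdm2 measured 79.9 and 45.8 CPM in dKO and 126, 161 and 137 CPM in Id1 libraries (-1.14 ± 0.36, adjusted p = 0.0523). Trp53inp1 measured 62.4 and 23.4 CPM in dKO and 122, 73.5 and 117 CPM in Id1 libraries (-1.25 ± 0.46, adjusted p = 0.0847), and neither gene overlapped between the groups. Cdkn1a measured 7.82 and 0.650 CPM in dKO and 8.56, 21.9 and 14.0 CPM in Id1 libraries (-1.73 ± 0.95, 0.237). The log2 differences of the others were -0.06 ± 0.34 for Zmat3 (adjusted p = 0.924), -0.52 ± 0.43 for Ccng1 (0.438) and 0.34 ± 0.31 for Sesn1 (0.483). The 2 dKO libraries differed from each other, and without dKO replicate 1 Cdkn1a, Trp53inp1, Mdm2 and Ccng1 passed as lower than in Id1 (adjusted p from 0.0217 to 0.0305), on the single library that remained. The count over all genes, 3499, was 5774 without that library and 183 without dKO replicate 3, and it also moved by over 1.5 times without Id1 replicate 1 or 3. The median of all tested genes was 0.16 in this comparison, and ILC2 markers added up to 2283 to 3786 CPM in dKO and 4032 to 4788 CPM in Id1 libraries.

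Over the 12 culture group means the 9 genes did not form one pattern. Bbc3 and Zmat3 had the highest Pearson correlation of any pair in log2(CPM + 1), 0.89, and Zmat3 correlated with Mdm2 (0.88) and Ccng1 (0.87) nearly as closely. Phlda3 and Eda2r, both high in DN1 cultures on day 4, correlated at 0.87. The unsorted day 4 libraries held 2131 to 10657 CPM of stromal markers, and the part of these cells in the correlation was not tested. Cdkn1a had a correlation of 0.83 with Ccng1 and of -0.16 with Sesn1, and Sesn1 and Eda2r had the lowest value, -0.46. These are descriptions over group means that share days, libraries and scaling.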

How the data were processed

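RNA-seq was deposited as raw counts per Ensembl gene and library, with 26 libraries in one table (thymus) and 5 in another (lung); the authors' counts are whole numbers with unequal totals. RNA was extracted with Trizol per the labels' protocols. The genome build mm10 and DESeq2 are named per the submitters' processing notes, while aligner, counter, strand setting and annotation were not given in the sources used here. GENCODE M21 (mm10) named 48578 of 48881 gene IDs.

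The 9 genes, the gene lists and the tests were chosen with earlier results of these data known. The naming rule asked for all 9 genes in every comparison and for each gene of the pathway lists where it passed. Where genes did not pass, some values are given as ranges or counts, and the cell division genes, the lists in thymic ILC2 and part of the p53 regulators are given as counts or left out.

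Groups follow the titles. edgeR 4.0.16 (R 4.3.3) fitted the 24 cultures (15172 genes kept, 12 residual degrees of freedom), the 26 thymus-table libraries (16391 genes) for thymic ILC2, and the 5 lung libraries (19371 genes, 3 residual degrees of freedom), each with 1 mean per group. Genes were filtered with filterByExpr (minimum count 10, by group), libraries scaled with TMM, and quasi-likelihood p values adjusted by Benjamini-Hochberg, with a threshold of 0.05. Standard errors were derived from F as the log2 change divided by its square root. TPM used union exon lengths. Intervals cover counting error only, and floors (3 counts over a group) cover only that of the group with 0 counts. All 9 genes passed the filter in both fits of the thymus libraries, and 6 did so among the lung libraries. The test was checked on simulated counts of the cultures, with the same spread for all genes and libraries and changes in a single group. That check does not cover groups of unequal spread or the lung fit. Alternatives were RLE size factors, no filter, DESeq2 1.42.0, fits of the compared groups alone, a replicate block, leaving out each replicate and, added after the data were seen, leaving out the day 4 libraries.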

Additional observations from a re-analysis of the deposited data

Results flagged for a closer look

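Results are listed here because the difference between floxed and control cultures itself differed between 2 days, or between DN1 and DN3 cultures, in edgeR's test of that change. For Cdkn1a the floxed minus control difference in DN3 cultures changed by -1.996 ± 0.21 between day 4 and day 5 (adjusted p = 0.00011) and by 2.46 ± 0.21 between day 5 and day 7 (adjusted p = 5.85e-06). On day 5 the Cdkn1a difference was 1.43 ± 0.21 less negative in DN1 than in DN3 cultures (adjusted p = 0.00164). All 3 Cdkn1a changes passed under each of their 13 or 14 alternatives.

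For Trp53inp1 the difference changed between day 4 and day 7 by -1.16 ± 0.24 in DN1 (adjusted p = 0.00442) and by -0.77 ± 0.23 in DN3 cultures (adjusted p = 0.032, lost in 5 of 13 alternatives). Between day 5 and day 7 it changed by -1.01 ± 0.23 in DN1 (adjusted p = 0.0349, lost in 8 of 14 alternatives) and by -1.09 ± 0.22 in DN3 cultures (adjusted p = 0.00666, lost in 1 of 14). For Phlda3 in DN3 cultures it changed by -1.34 ± 0.31 between day 4 and day 5 (adjusted p = 0.0399, lost in 10 of 13). The day 4 libraries were not sorted and held stromal transcripts, and floxed and control cultures differed in sex; the part of either in these changes was not tested.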

How the results depend on the processing

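Of 2455 values of single genes under the alternatives, 2307 kept their direction and their side of the threshold, 90 lost and 58 gained a call, and none changed direction past the threshold. The counts of the 9 genes that passed, out of those tested, moved by more than 1.5 times in these fits; their causes were not tested. Without the filter on low counts they were 2 for DN1 on day 7 floxed against control, 1 for DN3 on day 4, 1 and 2 for the DN1 changes of the genotype difference from day 4 to 5 and from day 5 to 7, 2 for DN1 against DN3 in the genotype difference of day 5 and 2 in the lung. With the compared groups alone they were 3 for DN1 floxed day 7 against day 5, 7 for DN1 control and 1 for DN3 control day 5 against day 4, 5 for DN1 against DN3 control on day 7, and 1, 0, 1 and 2 for the changes of the genotype difference in DN1 from day 4 to 5, in DN1 from day 5 to 7, in DN3 from day 4 to 5 and in DN3 from day 4 to 7. RLE size factors and DESeq2 each gave 1 for DN3 control day 5 against day 4, and DESeq2 gave 1 for the DN1 change from day 4 to 5 and 1 in the lung. A fit with the replicate letter as a block gave 1 for the DN3 change from day 4 to 5, 0 for the DN1 change from day 5 to 7 and 1 in the lung by replicate number. The labels do not say whether a letter marks 1 animal. Libraries of one letter deviated together with correlations of 0.118 to 0.135 over the 3 pairs of days in DN3 floxed, -0.118 to 0.134 in DN1 floxed and -0.0503 to 0.0028 in control cultures, so the pairing is not settled for DN3 floxed cultures. There the block called 6 genes on day 5 against day 4 (5 without it) and 6 on day 7 against day 5 (6 without it).

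Leaving out each replicate in turn gave 1 to 3 genes for DN1 and 0 to 2 for DN3 floxed against control on day 7, 1 to 2 for DN3 on day 5, 3 to 6 for DN1 floxed, 3 to 4 for DN1 control, 3 to 5 for DN3 floxed and 0 to 2 for DN3 control day 5 against day 4, and 7 to 8, 6 to 8, 6 and 7 to 8 for day 7 against day 5 in DN1 floxed, DN1 control, DN3 floxed and DN3 control cultures. It gave 1 to 2 and 0 to 4 for the DN1 changes of the genotype difference from day 4 to 7 and from day 5 to 7, 1, 0 to 2 and 1 to 2 for the DN3 changes from day 4 to 5, day 4 to 7 and day 5 to 7, 1 to 2 and 1 for DN1 against DN3 control on days 5 and 7, 0 to 3 for DN1 against DN3 in the genotype difference of day 7, 6 to 7 and 7 to 8 for thymic ILC2 against floxed cultures of DN1 and DN3 and 0 to 4 in the lung. A library left alone in its group is assumed to vary like the others.

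Counts over all genes moved more. With the compared groups alone, 133 genes passed for DN1 floxed day 7 against day 5 (3256 in the common fit), 4261 for DN1 control (1988), 798 for DN1 on day 7 (3412) and 38 for DN1 on day 4 (16). Without the filter 229 passed for DN1 and 257 for DN3 on day 4 (16 and 67), and DESeq2 called 49 for DN1. For the changes of the genotype difference, no filter, DESeq2 and the compared groups alone gave 464, 197 and 303 in DN1 from day 4 to 5 (103), 571, 357 and 130 in DN3 (216), and 922, 444 and 22 in DN1 from day 5 to 7 (247; 148 without the day 4 libraries). No filter and the compared groups alone gave 1882 and 421 in DN1 from day 4 to 7 (1180) and 1900 and 369 for DN1 against DN3 on day 7 (1182). For DN1 against DN3 on day 5, no filter, DESeq2 and the fit without day 4 gave 536, 356 and 133 (207). Leaving out single libraries moved the count over all genes from 3499 to between 183 and 5774 in the lung, from 3412 to between 1688 and 5803 for DN1 on day 7, from 3256 to between 1458 and 5458 for DN1 floxed and from 1988 to between 703 and 1025 for DN1 control day 7 against day 5, and from 247 to between 64 and 2315 for the DN1 change from day 5 to 7. It moved the count by over 1.5 times in most other comparisons of the cultures too. With 2 libraries in most groups and under 10 counts of Eda2r in each library of day 5, small changes were not detectable at this depth.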

Other observations

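Outside the 9 genes, those whose log2(CPM + 1) over the 12 culture group means was most like the mean z score of the 9 targets were Rtp4 (Pearson r = 0.927), which encodes a receptor transporter protein, Exoc4 (0.925), a subunit of the exocyst, Serpine2 (0.916), a serine protease inhibitor, Hpse (0.913), heparanase, and Fam19a3 (0.909). Group means ran from 5.92 to 35.3 CPM for Rtp4, 56.2 to 128 CPM for Exoc4 and 4.10 to 36.9 CPM for Serpine2, while Hpse reached 2.33 CPM and Fam19a3 6.87 CPM at most. For Cdkn1a alone the closest were Rpl21-ps14 (0.857), a processed pseudogene whose reads may come from near-identical copies, Vps37a (0.854), a subunit of the ESCRT-I sorting complex, and Pgm1 (0.847), phosphoglucomutase. These values describe 12 group means that share libraries and days. The genes were picked as the highest of the tested genes other than the 9, with predicted genes left out.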
